A study of Mus musculus with 5 samples.

Results

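The 1564 genes described here are those for which untreated mouse 4-cell nuclear transfer embryos stood at least 4-fold above or below every one of the other 4 libraries of the study. They are 1564 of 13144 genes tested (11.9%), out of 22026 genes in the files. A gene was tested when its mean over the 5 libraries was at least 1 FPKM (sequenced fragments divided by transcript length in kilobases and by the size of the library), and the 4-fold distance, 2 on the log2 scale, was taken on log2(FPKM + 1). In 574 genes (4.37% of those tested) the untreated library was the higher, and in 990 (7.53%) it was the lower. The same values that chose these genes are given below, so they are a description and carry no test.

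All 5 libraries were bulk poly(A) RNA-seq of B6D2F1 embryos, made by moving a nucleus into an egg whose own chromosomes had been removed. The groups were untreated embryos, embryos given luciferase as a control, embryos with the histone variant H3.3 knocked down (H3.3KD), and 2 further knockdown groups supplied with mRNA, 1 with that of H3.3 and 1 with that of H3.2. For the last group the title says H3.2 mRNA and a treatment tag says H3.3 mRNA, and the title was followed. The donor cell of the nuclei, the agent of the knockdown and the number of embryos pooled are not given in the sources used here. Each group was 1 library, so no difference has a replicate check, and every comparison below uses the same untreated library. The source names also split the libraries: untreated, H3.3KD and H3.3KD + H3.3 mRNA are named NT, and luciferase and H3.3KD + H3.2 mRNA are named SCNT. Whether this marks a batch is not given.

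An egg carries a large store of messenger RNA made while the oocyte grew. After fertilisation or nuclear transfer these maternal transcripts are cleared, while the embryo's own genome starts to be read, in mice mainly from the 2-cell stage. A nuclear transfer embryo must do the same with the chromatin of a differentiated donor nucleus, and H3.3, a histone H3 variant placed on chromatin outside DNA replication, takes part in that remodelling.

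Of 13 marker genes of the oocyte and early embryo, all 13 were above 0 in the untreated library, and 11 to 13 were above 0 in the treated ones. Dppa3, a maternal factor that protects DNA methylation, stood at 13794 FPKM untreated, 10257 with luciferase, 19535 in H3.3KD, 8550.2 after H3.3 mRNA and 4818 after H3.2 mRNA. The pluripotency factor Pou5f1 stood at 1249.7 FPKM untreated and at 849, 479, 391 and 157 FPKM in the same order of treated libraries, which is kept throughout. Neither gene that encodes H3.3 met the 4-fold rule. H3f3a was at 783 FPKM untreated, 3503 with luciferase, 128 in H3.3KD, 95.5 after H3.3 mRNA and 129 after H3.2 mRNA. H3f3b was at 4484 FPKM untreated and at 2230.5, 535, 371 and 292 FPKM in the treated libraries. The untreated library was thus below luciferase for H3f3a and above it for H3f3b, and above all 3 knockdown libraries for both.

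Both sets of genes were made up largely of genes listed at 0 somewhere. Of the 574 higher genes, 125 were listed at 0 in all 4 treated libraries, 242 in some of them, and 207 were above 0 in all. Of the 990 lower genes, untreated embryos had 555 at 0 and 435 above 0. An exact 0 in such files can be a failed estimate as well as an unread gene. Among the 8520 tested genes above 0 in all 5 libraries, the shares were 2.43% higher and 5.11% lower. Of the higher genes, 168 had a treated mean under 1 FPKM and passed the filter only through the untreated library. No lower gene had a treated mean under 1 FPKM, and the 555 listed at 0 untreated passed the filter through the treated libraries alone.

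**Figure D1:**
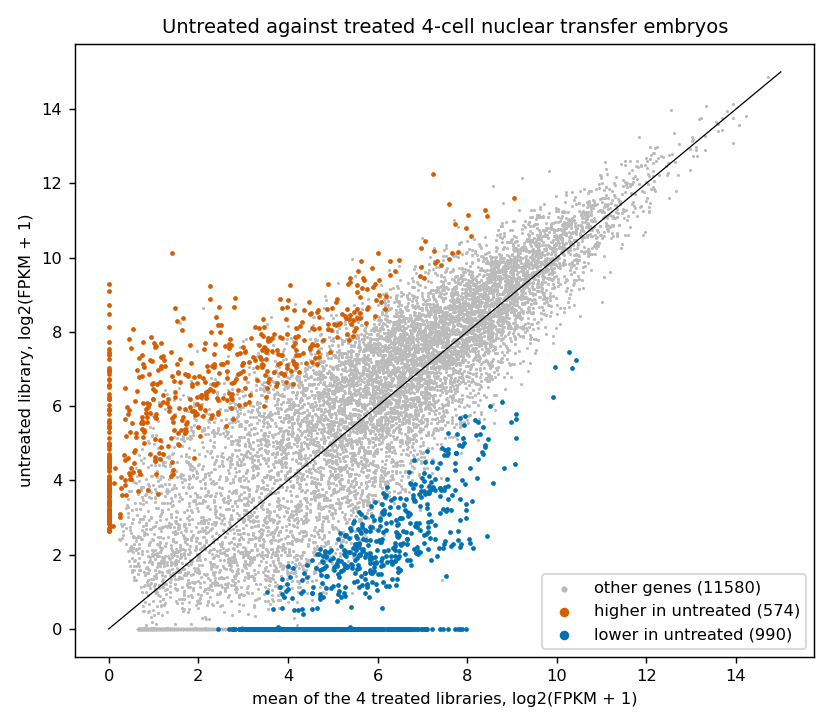
Each point is 1 gene tested, with the mean log2(FPKM + 1) of the 4 treated libraries on the x axis and the log2(FPKM + 1) of the untreated library on the y axis; the 574 higher and 990 lower genes are coloured. The points at 0 on the y axis include the 555 lower genes listed at 0 in untreated embryos, and no test is shown.

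The untreated library had 10443 genes above 0, close to the 10496 of H3.3KD and under the 12300.0 of luciferase, 11280.0 after H3.3 mRNA and 12261 after H3.2 mRNA. It also had the most tested genes listed at 0 in 1 library alone, 727, against 114 for luciferase, 455 for H3.3KD, 164 after H3.3 mRNA and 70 after H3.2 mRNA. Among genes with a mean of 20 to 100 FPKM, 12% were listed at 0 in untreated embryos, and between 3.15% (luciferase) and 8.43% (H3.3KD) in the treated libraries. At a mean of 100 to 500 FPKM the untreated share was 1.17% and each treated share was 0.30% to 0.42%. The files give no counts, so the depth of each library is unknown, and its part in these zeros was not tested. Of the genes above 0 in 1 library alone, 125 belonged to untreated embryos, 279 to luciferase, 99 to H3.3KD, 137 to H3.3 mRNA and 219 to H3.2 mRNA. Genes seen in a single library were therefore no more frequent in untreated embryos than in 3 of the treated libraries.

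**Figure D2:**
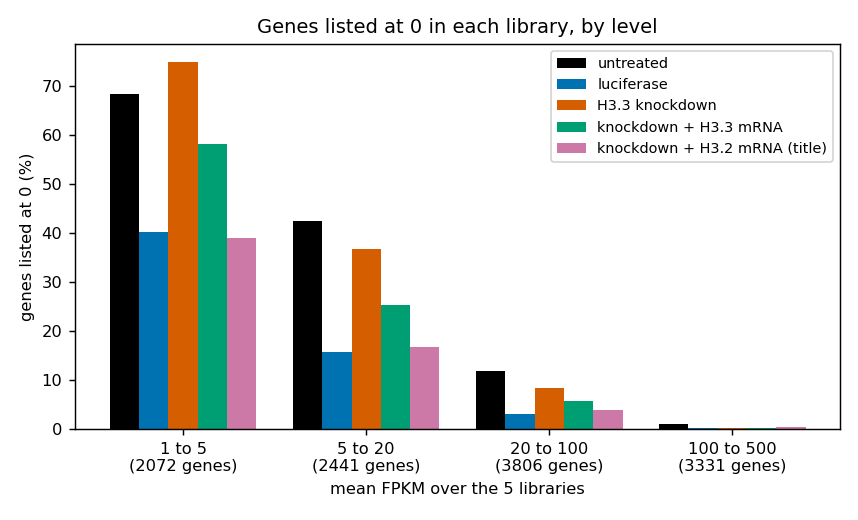
Share of tested genes listed at 0 FPKM in each library, in percent, by the gene's mean FPKM over the 5 libraries. Between 20 and 100 FPKM the untreated library has 12% of its genes at 0, the highest of the 5.

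The most abundant genes of the higher set came from several groups. Zbed3, which encodes an Axin-binding protein found in the subcortical maternal complex of the egg, stood at 4895 FPKM in untreated embryos. Its treated levels were 43.0 FPKM with luciferase, 427 in H3.3KD, 292 after H3.3 mRNA and 95.3 after H3.2 mRNA, so that untreated embryos were 11.5-fold above the nearest of them. Bcl2l10, an oocyte-enriched relative of BCL2, stood at 2781 FPKM untreated and at 59.4, 348, 194 and 339.9 FPKM in the treated libraries, 7.99-fold below at the nearest. H1foo, the linker histone of oocytes, stood at 1925 FPKM untreated and at 74.8, 351, 426 and 179.6 FPKM treated. All 3 are genes of the egg's store, and in each the treated range lay wholly below the untreated value.

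Others were stress and cytoskeletal genes. Ddit3, the stress-induced transcription factor CHOP, stood at 2494 FPKM untreated and at 262, 497, 375 and 262 FPKM in the treated libraries. Sqstm1, which encodes the autophagy receptor p62, stood at 3097 FPKM untreated and at 494, 714, 604 and 352 FPKM. For both, H3.3KD was the nearest treated library, at 5.02-fold and 4.34-fold below. Tagln2, an actin-binding protein of the transgelin family, stood at 2273 FPKM untreated, against 259, 212, 229.7 and 342 FPKM. Its treated levels were close to each other and 6.64-fold or more below the untreated one. Tsc22d1, a leucine zipper protein regulated by TGF-beta, stood at 2214 FPKM untreated and at 369.7, 507, 221 and 348 FPKM treated. Fkbp11, a prolyl isomerase of the secretory pathway, stood at 1772 FPKM untreated and at 251, 377, 244 and 171 FPKM. In 6 of the 8 most abundant higher genes H3.3KD was the treated library nearest to untreated embryos. Among all 207 higher genes above 0 in every library it was nearest in 63.

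**Figure D3:**
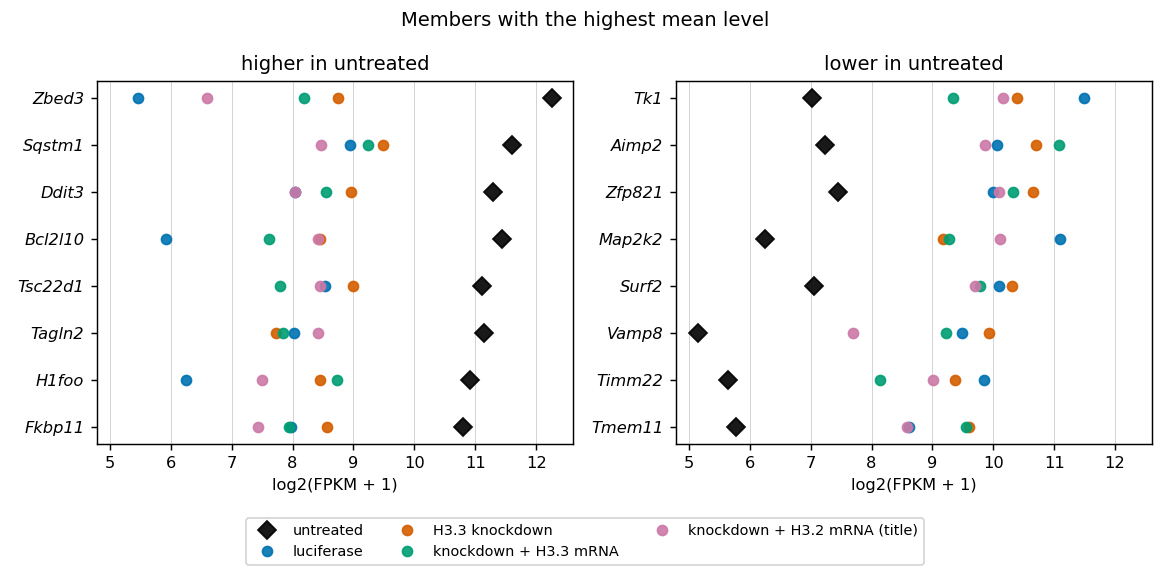
FPKM of the higher and lower genes of highest mean level in each of the 5 libraries, as log2(FPKM + 1), 1 point a library. In the higher genes the untreated point lies right of all 4 treated points, and in the lower genes left of them.

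Genes of the oocyte were mostly higher in untreated embryos than in the treated mean, though few by 4-fold against every library. Of 67 tested oocyte genes, 6 were higher by the 4-fold rule (8.96%, all genes 4.37%) and 0 were lower (all genes 7.53%), and the untreated library held the highest value in 36 (53.7%). Over all tested genes it held the highest value in 26.3%. The list's median difference, untreated minus the mean of the treated on the log2(FPKM + 1) scale, was 1.60, where all genes had -0.17. Against each treated library by itself the list's median was 3.19 for luciferase, 1.27 for H3.3KD, 1.58 for H3.3 mRNA and 0.64 for H3.2 mRNA. With upper-quartile scaling, which moved the median of all genes to -0.67, untreated embryos were highest in 24 of the oocyte genes (35.8%, all genes 17.0%), and 3 met the rule. Leaving out a treated library can only add genes under such a rule: without H3.3KD 12 oocyte genes were higher and 1 lower, and without H3.2 mRNA 10 were higher. Without luciferase 2 were lower. Against the NT-named treated libraries alone 10 were higher and 2 lower, and against the SCNT-named ones alone 16 and 2. Of all 13144 tested genes, 761 were higher and 1493 lower without H3.3KD, 731 higher without H3.2 mRNA and 1142 lower without luciferase. The NT-named libraries alone gave 1079 higher and 1364 lower of all genes, and the SCNT-named ones alone 1048 and 2048.

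Mos, the kinase that holds the egg in meiotic arrest, stood at 289 FPKM untreated, was listed at 0 with luciferase and H3.2 mRNA, and stood at 43.2 FPKM in H3.3KD and 18.2 with H3.3 mRNA. Astl, which encodes ovastacin, the protease that cleaves the zona pellucida after fertilisation, stood at 389 FPKM untreated and at 35.2, 18.0, 48.9 and 72.1 FPKM treated. Oas1d, an oocyte member of the oligoadenylate synthetase family, stood at 571 FPKM untreated and at 6.55, 106, 110.1 and 96.4 FPKM. Bcl2l10, H1foo and Btg4 were the other 3 of the 6. Other transcripts of the egg missed the rule in 1 or more libraries. Gdf9, the oocyte growth factor, stood at 1332 FPKM untreated, with H3.3KD at 550.2 and the other treated libraries between 81.3 and 330.2. Zp2, a zona pellucida protein, went the other way, at 8.82 FPKM untreated and 34.6 to 81.9 FPKM treated.

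Of 33 tested genes that store or clear maternal mRNA, 3 were higher and 3 lower, 9.09% each, against 4.37% and 7.53% of all genes. Btg4, which brings the CCR4-NOT deadenylase to maternal messages, stood at 1389.9 FPKM untreated and at 29.2, 271, 189 and 200.1 FPKM treated. Pabpc1l, the poly(A)-binding protein of oocytes, stood at 53.8 FPKM untreated, was listed at 0 with luciferase and in H3.3KD, and stood at 3.96 and 2.70 FPKM with the mRNAs. Eif4e1b, an oocyte cap-binding protein, was listed at 0 in all treated libraries and stood at 18.3 FPKM untreated. It passed the filter only through the untreated library, so the higher share of 9.09% rests in part on the filter. These 3 are genes of the oocyte. The 3 lower genes were Zcchc11, a terminal uridylyltransferase that tails RNA, Zfp36l1, which directs decay of AU-rich messages, and Cpeb3, which regulates translation. Zcchc11 and Zfp36l1 were listed at 0 in untreated embryos, and Cpeb3 stood at 2.10 FPKM untreated and 12.1 to 44.1 FPKM treated. Without H3.3KD the lower count was 5 (all genes 1493 of 13144).

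Antigen presentation and interferon genes were also more often highest in untreated embryos. Of 27 tested, 5 were higher (18.5%, all genes 4.37%) and 0 lower (all genes 7.53%). The untreated library was highest in 16 (59.3%, all genes 26.3%) and lowest in 0 (all genes 20.7%), and the median difference was 1.41 on the log2(FPKM + 1) scale. With upper-quartile scaling untreated embryos were highest in 13 (48.1%, all genes 17.0%). The higher count was 8 without H3.3KD (all genes 761 of 13144) and 8 without H3.3 mRNA (all genes 708). Against the SCNT-named libraries alone it was 12 (all genes 1048). Without H3.2 mRNA 1 gene was lower (all genes 1107). Psmb8, a catalytic subunit of the immunoproteasome, stood at 1107 FPKM untreated, 48.8 with H3.3 mRNA, and 0 in the remaining 3. Its partner Psmb9 stood at 71.9 FPKM untreated and was listed at 0 in all 4 treated libraries. Tapbp, which encodes tapasin, the loader of peptide onto MHC class I, stood at 696 FPKM untreated and at 41.3, 16.8, 113 and 34.0 FPKM treated. Psmb9 passed the filter on low values only through the untreated library. The other 2 were Irf9, a subunit of the interferon-activated factor ISGF3, at 462 FPKM untreated and 30.7 to 89.7 treated, and Ifitm3, an interferon-induced membrane protein.

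Ifitm3 stood at 254 FPKM untreated, 28.4 with luciferase and 33.2 in H3.3KD, and was listed at 0 in both mRNA libraries. H2-K1, a class I heavy chain, just missed the rule, at 964 FPKM untreated and 171, 115, 252 and 106 FPKM treated. B2m, the class I light chain, stood at 1851 FPKM untreated and 1213 in H3.3KD, with the other 3 between 251 and 416 FPKM. Of 41 proteasome genes tested, Psmb8 and Psmb9 were higher (4.88%, all genes 4.37%) and 0 were lower. Without H3.3KD 4 were higher (all genes 761 of 13144). Untreated embryos were highest in 15 of the 41 (36.6%, all genes 26.3%) and lowest in 1 (2.44%, all genes 20.7%), and with upper-quartile scaling highest in 10 and lowest in 10 (24.4% each, all genes 17.0% and 28.0%). The proteasome list's median was 0.40 as deposited and -0.13 with upper-quartile scaling.

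**Figure D4:**
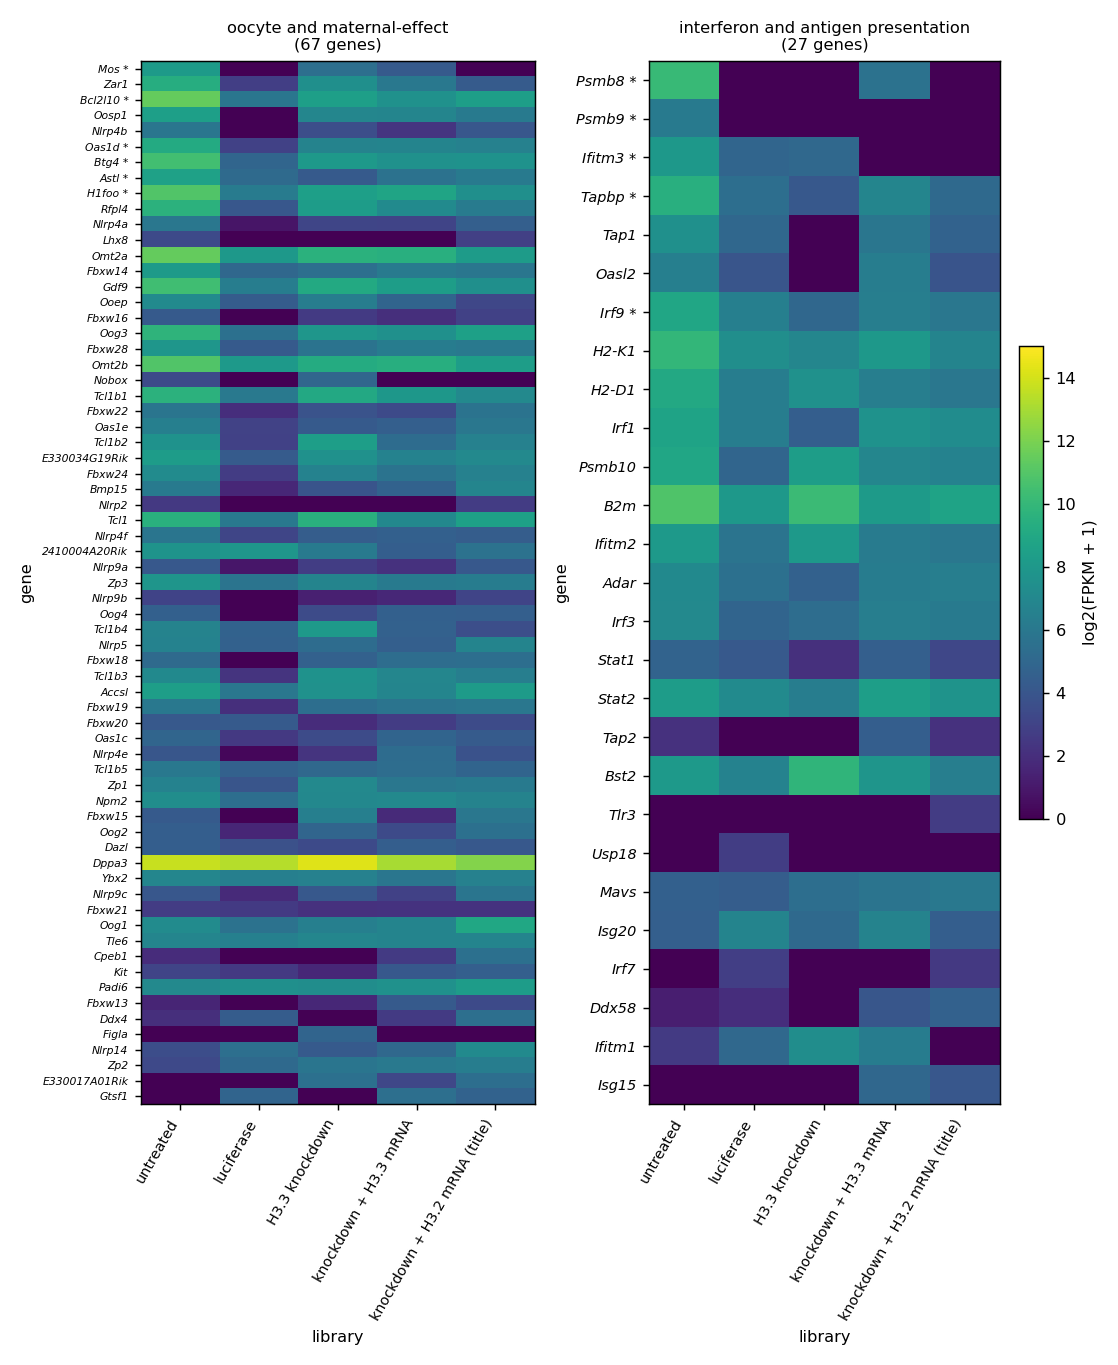
Levels of all 67 tested oocyte genes and all 27 tested interferon and antigen presentation genes in the 5 libraries, as log2(FPKM + 1) by colour, ordered by the difference of untreated embryos from the mean of the treated, largest on top. An asterisk marks the 6 and 5 genes that met the 4-fold rule, and the untreated column is the brightest in 36 and 16 genes.

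Genes of p53 and apoptosis gave 3 higher (9.68%, all genes 4.37%) and 1 lower (3.23%, all genes 7.53%) of 31. Untreated embryos were highest in 17 (54.8%, all genes 26.3%), or in 10 (32.3%, all genes 17.0%) with upper-quartile scaling. Pmaip1, which encodes the pro-death protein NOXA, stood at 71.8 FPKM untreated, 4.02 with luciferase and 2.05 with H3.2 mRNA, and was listed at 0 in the other 2. Casp9, the initiator caspase of the mitochondrial pathway, stood at 48.6 FPKM untreated and at 0 to 7.61 FPKM treated. Btg2, an antiproliferative p53 target, stood at 1126 FPKM untreated and at 242, 260.1, 203 and 192 FPKM treated. The lower gene was Bad, another pro-death member of the BCL2 family, at 4.72 FPKM untreated and 176, 70.0, 206 and 111 FPKM treated. Members of 1 death pathway thus lay on both sides.

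Of 36 heat shock and unfolded protein response genes, Ddit3 was higher (2.78%, all genes 4.37%) and 3 were lower (8.33%, all genes 7.53%). Atf5, a stress transcription factor, stood at 3.84 FPKM untreated and at 21.6, 153, 221 and 137 FPKM treated. Ern1, which encodes the stress sensor IRE1, stood at 7.06 FPKM untreated and 32.7 to 79.5 treated. Herpud1, a component of the degradation machinery of the endoplasmic reticulum, stood at 9.64 FPKM untreated and 42.2 to 90.3 treated. The list's median difference was 0.66 on the log2(FPKM + 1) scale, and untreated embryos were highest in 18 of the 36 (all genes 26.3%). With upper-quartile scaling the median was 0.13, and untreated embryos were highest in 5 of the 36 (13.9%, all genes 17.0%), so the lean depended on the scaling. Without luciferase, 3 genes of the list were higher (all genes 749 of 13144).

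Among lineage genes, 2 of 26 trophectoderm and primitive endoderm genes by the rule were higher (7.69%, all genes 4.37%) and 0 lower (all genes 7.53%). Without luciferase 7 were higher (all genes 749 of 13144). The lower count was 2 without H3.3KD (all genes 1493) and 1 without H3.3 mRNA (all genes 1214). Atp1b1, the sodium pump subunit used in blastocyst cavity formation, stood at 295 FPKM untreated and at 37.5, 40.6, 30.1 and 63.3 FPKM treated. Cldn6, a tight junction claudin of early epithelia, stood at 864 FPKM untreated and at 143, 95.9, 201 and 86.0 FPKM treated. Of 31 pluripotency genes, 1 was higher (3.23%) and 2 lower (6.45%), under the shares of all genes. The higher was Nodal, a TGF-beta family ligand, at 35.3 FPKM untreated, 7.45 with H3.2 mRNA and listed at 0 elsewhere. The lower ones were L1td1, an RNA-binding protein, and Tet1, which oxidises methylated cytosine; both were listed at 0 in untreated embryos. L1td1 stood at 28.0 to 65.4 FPKM treated and Tet1 at 3.70 to 45.4 FPKM.

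Replication-dependent histones show how low levels enter the set. Of 15 tested, 6 were higher (40%, all genes 4.37%) and 0 lower (all genes 7.53%). In the untreated library none of the 6 stood above Hist2h2ac at 18.0 FPKM. The others were Hist1h3a at 16.6 FPKM, Hist2h2aa1 at 12.4, Hist3h2ba at 8.23, Hist1h4c at 7.38 and Hist1h3f at 5.87. Hist2h2ac, Hist1h3a, Hist3h2ba, Hist1h4c and Hist1h3f had treated means under 1 FPKM, so they passed the filter only through the untreated library. With a mean of at least 5 FPKM required, the higher count was 0. Without H3.3 mRNA, 1 histone gene was lower (all genes 1214 of 13144). Most of these messages carry no poly(A) tail and the genes are near-identical copies, so their values are uncertain in such libraries.

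The 125 genes read in untreated embryos alone ran from 5.18 to 623 FPKM there, with a median of 15.2 FPKM. At their top stood small nucleolar RNAs (snoRNAs), which guide chemical changes of ribosomal and other RNA and are cut from introns of host genes. Of 31 snoRNA genes tested, 4 were higher (all genes 4.37%) and 0 lower (all genes 7.53%). All 4 were listed at 0 in every treated library, so they passed the filter only through the untreated library. They were Snora70 at 623 FPKM, Snord58b at 548, Snord83b at 419 and Snora43 at 121 FPKM. The libraries were made from poly(A) RNA, and how far such small RNAs are captured in them was not tested, so these values are uncertain. The luciferase library alone held 8 snoRNAs above 0, the H3.2 mRNA library 4, and the other 2 held 1 each, so such solitary snoRNAs were not particular to untreated embryos. Snora70 and Snord83b are shown because they stand among the 3 highest of all genes seen in untreated embryos alone and because their size matters to the unit. The sequences are the GENCODE M21 transcripts of build GRCm38, 5′ to 3′. Capitals mark the ACA box that ends an H/ACA snoRNA in the first, and the C box and D box of a C/D snoRNA in the second.
Snora70: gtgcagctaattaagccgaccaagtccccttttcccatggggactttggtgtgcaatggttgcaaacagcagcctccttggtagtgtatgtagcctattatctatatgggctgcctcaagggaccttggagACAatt
Snord83b: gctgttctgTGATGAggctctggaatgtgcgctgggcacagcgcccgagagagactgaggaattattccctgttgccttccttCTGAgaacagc

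Snora70 has 137 bases and Snord83b 94, against reads of 51 bases, and FPKM divides by length, so a given number of reads gives a higher value than in a longer gene. Snora70 lies in Rpl10 on chromosome X, and Snord83b in Rpl3 on chromosome 15, both genes of ribosomal proteins. Rpl10 stood at 297 FPKM untreated and at 278, 367, 225 and 114 FPKM treated, and Rpl3 at 1577 FPKM untreated and 1332 to 2534 treated. Neither host gene stood apart in untreated embryos as its snoRNA did. Some protein-coding genes listed at 0 in all treated libraries stood between Snord83b and Snora43. They include Otos at 359 FPKM, which encodes otospiralin of the inner ear, and Gnat2 at 277 FPKM, the transducin subunit of cones. Cga, the common subunit of the glycoprotein hormones, stood at 168 FPKM and Bgn, the matrix proteoglycan biglycan, at 129 FPKM.

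Among higher genes above 0 in every library, the largest distances were found at moderate levels. Ldlrad3, a membrane receptor of the LDL receptor class, stood at 139 FPKM untreated and at 0.80, 2.22, 1.96 and 2.91 FPKM treated, 47.7-fold above the nearest. Rnf123, a ubiquitin ligase, stood at 137 FPKM untreated and at 3.17, 4.79, 2.90 and 6.39 FPKM. Mgat1, which starts complex N-glycan synthesis, stood at 278 FPKM untreated and at 15.8, 3.17, 10.3 and 9.73 FPKM, 17.6-fold above. In these the treated libraries lay together under 16 FPKM. Ak1, the adenylate kinase of the cytosol, stood at 609.98 FPKM untreated and at 37.3, 20.8, 22.8 and 2.85 FPKM. Lman1, a lectin that carries glycoproteins out of the endoplasmic reticulum, stood at 625 FPKM untreated and at 54.5, 29.5, 33.0 and 46.7 FPKM. Its treated libraries lay within 2-fold of each other, and those of Ak1 did not.

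The lower set had its most abundant genes between 34.4 FPKM (Vamp8) and 174 FPKM (Zfp821) untreated, with the treated libraries far above. Tk1, the thymidine kinase of S phase, stood at 129 FPKM untreated and at 2880.4, 1339, 645 and 1145 FPKM treated. Map2k2, the ERK kinase MEK2, stood at 75.1 FPKM untreated and at 2179, 577, 616 and 1109 FPKM treated. In both, luciferase was the farthest from untreated embryos. Aimp2, a scaffold of the aminoacyl-tRNA synthetase complex, stood at 149 FPKM untreated and at 1072, 1669, 2151 and 936 FPKM, with the H3.3 mRNA library farthest. Vamp8, a vesicle fusion protein, stood at 34.4 FPKM untreated and at 716, 971, 594 and 207 FPKM. The 4 treated libraries held no fixed order among these genes. Zfp821, a zinc finger gene, stood at 174 FPKM untreated and at 1024, 1609, 1279 and 1098 FPKM treated. Surf2, a gene of the surfeit cluster, stood at 131 FPKM untreated and at 1089, 1271, 876 and 834 FPKM. Tmem11, of the mitochondrial inner membrane, stood at 53.9 FPKM untreated and at 391, 771, 747 and 385 FPKM. The treated libraries of Zfp821, Surf2 and Tmem11 lay close to each other, and luciferase was not the farthest in any of the 3.

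Several lower genes above 0 throughout belong to mitochondria or to transport. Slc39a11, a zinc transporter, stood at 1.71 FPKM untreated and at 189, 173, 286 and 123 FPKM treated, a distance of 71.8-fold to the nearest. Sars2, the mitochondrial seryl-tRNA synthetase, stood at 3.98 FPKM untreated and at 234, 366, 226 and 259.9 FPKM, 56.8-fold. Timm22, of the mitochondrial inner membrane import machinery, stood at 49.1 FPKM untreated and at 919, 658, 279 and 513 FPKM. Efhd1, a calcium-binding protein of the mitochondrial inner membrane, stood at 4.66 FPKM untreated and at 553, 377, 369 and 185 FPKM. In all 4 the lowest treated library was many times the untreated level. Creb3, a transcription factor released from the endoplasmic reticulum membrane, stood at 2.65 FPKM untreated and at 111, 333, 104 and 118 FPKM. Fuca2, a fucosidase, stood at 1.52 FPKM untreated and at 94.1, 83.3, 64.8 and 78.4 FPKM, the treated libraries lying within 2-fold. Of 76 mitochondrial ribosomal proteins 1 was lower (1.32%, all genes 7.53%), and 0 of 77 respiratory chain genes met the rule. The lower one was Mrps2, at 36.1 FPKM untreated and 201 to 384 treated, and without luciferase 2 were lower (all genes 1142 of 13144). Both lists were abundant, with untreated sums of 53148 and 89015.5 FPKM. At a mean of 500 FPKM or more, 0.602% of all tested genes were higher and 0.402% lower. At a mean of 100 to 500 FPKM these shares were 2.10% and 5.13%. How many genes of the mitochondrial lists lie at each level was not counted. Whether counts near 0 are particular to mitochondria was therefore not tested.

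The 555 genes listed at 0 in untreated embryos were above 0 in all 4 treated libraries, and some were abundant there. Dpagt1, which starts N-glycan precursor synthesis, stood at 141, 244, 287 and 271 FPKM in the treated libraries. Rassf7, of the RAS association domain family, stood at 313, 329, 147 and 161 FPKM. Hsd17b10, a mitochondrial dehydrogenase, stood at 255, 107, 90.4 and 113 FPKM. In all 3 the lowest treated library stood at 90.4 FPKM or more, and untreated embryos alone lacked a value. In some the 4 treated libraries lay within 2-fold of each other: Ctdnep1, a phosphatase of the nuclear envelope, stood at 112, 162, 103 and 134 FPKM, and Recql4, a DNA helicase, at 48.1, 50.5, 67.5 and 90.9 FPKM.

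Genes read at the 2-cell stage gave 1 higher and 4 lower of 28, with untreated embryos highest in 12 (42.9%, all genes 26.3%) and lowest in 6 (21.4%, all genes 20.7%). By the rule 3.57% were higher and 14.3% lower, where all genes had 4.37% and 7.53%. With upper-quartile scaling untreated embryos were highest in 9 (32.1%, all genes 17.0%) and lowest in 10 (35.7%, all genes 28.0%). The higher count was 3 without luciferase (all genes 749 of 13144), 3 without H3.3KD (all genes 761) and 2 without H3.2 mRNA (all genes 731). The lower ones were Usp17l5, a deubiquitinase, and Tdpoz1, Tdpoz2 and Tdpoz4, of a clustered family expressed in early embryos. Tdpoz1 stood at 1.19 FPKM untreated and at 50.7, 22.6, 46.5 and 38.2 FPKM treated. Tdpoz4 stood at 5.24 FPKM untreated and at 29.0, 101, 129 and 25.8 FPKM. Tdpoz2 was listed at 0 untreated and stood at 79.2, 93.1, 81.8 and 124 FPKM. The 3 were low together in untreated embryos, but they are near-identical copies among which reads can be split, so they are not independent of each other.

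Chromatin modifiers lay towards the low side of the treated mean, with a median difference of -0.39 (all genes -0.17). Against H3.3KD alone the list's median went the other way, at 0.29. It was -0.32 for luciferase, -0.62 for H3.3 mRNA and -0.56 for H3.2 mRNA. Of 59 genes, 1 was higher (1.69%, all genes 4.37%) and 5 lower (8.47%, near the 7.53% of all genes). Untreated embryos were lowest in 20 (33.9%, all genes 20.7%). Untreated embryos were lowest in 24 of them (40.7%, all genes 28.0%) with upper-quartile scaling and in 17 (28.8%, all genes 21.2%) with quantile scaling. Without H3.3KD 9 were lower (all genes 1493 of 13144), and without H3.3 mRNA 2 were higher (all genes 708). Dnmt3b, a de novo DNA methyltransferase, stood at 1.84 FPKM untreated and at 68.6, 25.8, 117 and 33.9 FPKM treated. Cbx8, a Polycomb chromodomain protein, was listed at 0 untreated and stood at 24.4, 265, 56.8 and 29.5 FPKM. Kdm4b, a demethylase of histone H3 lysine 9, was listed at 0 untreated and stood at 7.62 to 37.9 FPKM treated, and Mll1, a methyltransferase of lysine 4, was also listed at 0 untreated and stood at 4.35 to 10.2 FPKM treated. Tet1, named above, was the fifth. The one higher gene was Cbx2, another Polycomb chromodomain protein, at 272 FPKM untreated and 17.4, 61.9, 59.8 and 62.4 FPKM treated, so the Polycomb pair lay on opposite sides.

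The transcription machinery gave 4 lower (8.33%, near the 7.53% of all genes) and 0 higher of 48. Polr3b, a subunit of RNA polymerase III, stood at 1.80 FPKM untreated and at 54.0, 49.1, 141 and 42.3 FPKM treated. Taf2, a subunit of the TFIID initiation complex, stood at 25.5 FPKM untreated and at 257, 122, 235 and 176 FPKM, and the TFIID genes Taf3 and Taf4b were lower too. Other TFIID genes lay the other way without meeting the rule: Taf6, Taf7 and Taf10 were highest in untreated embryos, Taf6 at 1219.6 FPKM untreated and 401 to 643 treated. DNA replication genes gave 1 higher (2.13%) and 2 lower (4.26%) of 47, under the shares of all genes. Rfc4, of the clamp loader, stood at 15.2 FPKM untreated and at 433, 147, 192 and 251 FPKM treated, and Lig1, the DNA ligase of replication, at 17.5 FPKM untreated and 99.7 to 196 treated. Gins2, of the replicative helicase, lay opposite, at 388 FPKM untreated and 78.5, 76.3, 27.2 and 25.8 FPKM treated.

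Single genes of other lists were far apart. Drosha, the nuclease that opens microRNA processing, stood at 5 FPKM untreated and at 108, 96.7, 108 and 111 FPKM treated, nearly 1 level in all treated libraries. Stau2, which binds double-stranded RNA and moves messages within cells, lay opposite, at 140.4 FPKM untreated and 3.13, 24.0, 7.13 and 14.6 FPKM treated. Of 24 tested genes of RNA silencing and double-stranded RNA, only Stau2 was higher (4.17%, all genes 4.37%) and only Drosha lower (4.17%, all genes 7.53%). Bms1, a factor of small ribosomal subunit assembly, stood at 3.92 FPKM untreated and at 318, 109, 394 and 216 FPKM. It was the only one of 54 ribosome biogenesis genes to meet the rule (1.85% lower, all genes 7.53%). Idh2, the mitochondrial isocitrate dehydrogenase, stood at 33.9 FPKM untreated and at 1186, 378, 145 and 229.9 FPKM. It was 1 of 3 lower genes among 40 of glycolysis and the citric acid cycle (7.50%, near the 7.53% of all genes). The mitotic list gave 2 lower of 43 (4.65%, under the 7.53% of all genes), and 5 without H3.3KD (all genes 1493 of 13144). The 2 were Anapc1 and Cdc25b, which act in exit from and entry into mitosis. Without H3.3KD the lower count was 2 in the list that holds Drosha and 3 in that of Bms1 (all genes 1493 of 13144).

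Several lists of housekeeping functions held no such gene, nor did the 5 tested blood and endothelium markers or the 2 neural ones. None of 81 cytosolic ribosomal proteins, 53 spliceosome genes or 54 genes of translation and tRNA charging met the rule in either direction. Without H3.3KD, 1 spliceosome gene and 1 gene of translation were lower (all genes 1493 of 13144). Of these lists 60 ribosomal proteins, 27 spliceosome genes and 39 genes of translation had a mean of 500 FPKM or more, a level at which 0.602% of all tested genes were higher and 0.402% lower, so counts near 0 are not particular to them. Over all the lists, 31 higher (2.98%) and 33 lower genes (3.18%) were found among 1039 distinct genes tested, against 4.37% and 7.53% of all tested genes.

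**Figure D5:**
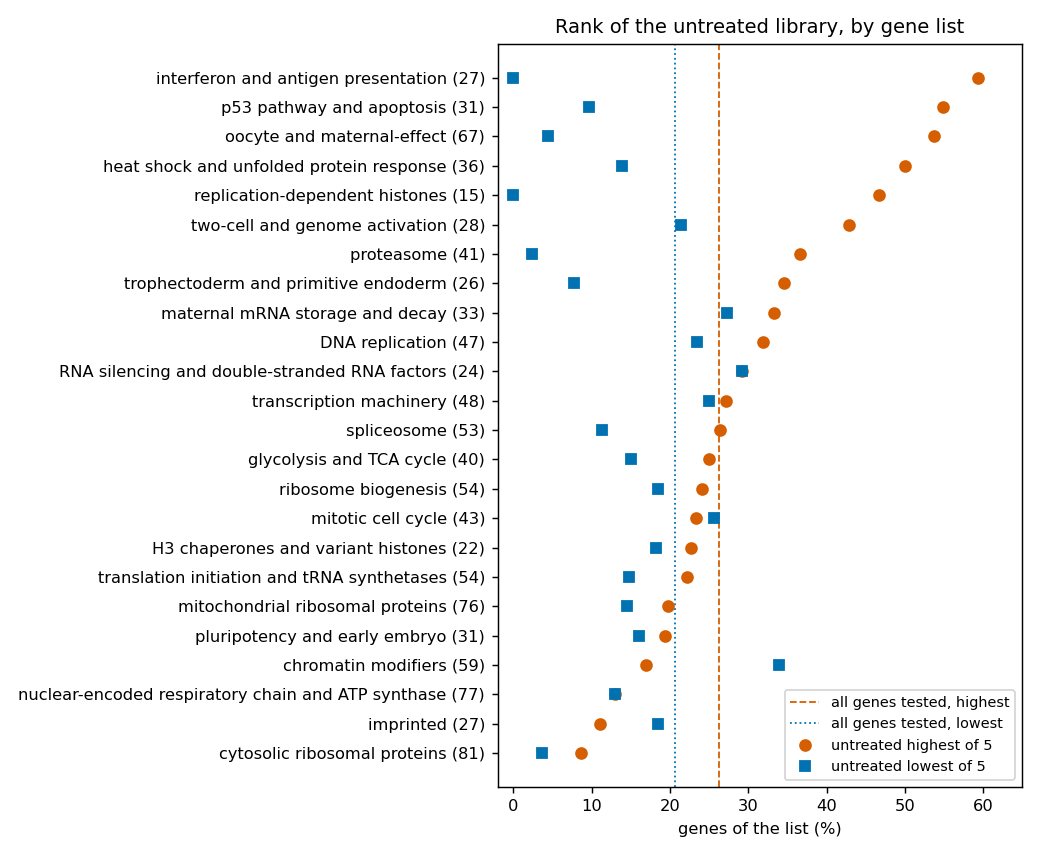
For each list other than the markers of other cell types, with its number of tested genes in brackets, the share of its tested genes in which the untreated library was the highest and the lowest of the 5, in percent, with the same shares over all tested genes (26.3% and 20.7%). Antigen presentation (59.3% highest), p53 and apoptosis (54.8%), oocyte (53.7%) and heat shock genes (50%) lie farthest to the right. Chromatin modifiers (33.9% lowest) have more low than high values.

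Markers of cells that could be carried along were sparse. Of 16 cumulus and granulosa markers, 14 were listed at 0 in untreated embryos, and the list's sum was 189 FPKM there and 7.22 to 37.4 FPKM in the treated libraries. Almost all of it came from Tnfaip6, a matrix protein of the expanding cumulus, which met the rule at 185 FPKM untreated, 30.8 with H3.3 mRNA, 10.4 with H3.2 mRNA and 0 in the other 2. The defining cumulus genes Has2, Ptx3 and Fshr had means under 1 FPKM. The 15 fibroblast markers summed to 69.8 FPKM untreated and 16.6 to 73.9 treated, with Fn1 lower, at 0.82 FPKM untreated and 15.1 to 54.3 treated. Vim, the intermediate filament vimentin, made up nearly all of the untreated sum, at 68.7 FPKM untreated, 21.8 with luciferase and 0 in the other 3. Blood and endothelium markers summed to 459 FPKM untreated and 897 to 1735 treated, and neural markers to 362 FPKM untreated and 89.0 to 236 treated. Single genes carried these sums: Gata1, a blood cell transcription factor, stood at 234 FPKM untreated and 724 to 1534 treated, and Pecam1, of endothelium, at 215 FPKM untreated and 40.4 to 647 treated. The neural tubulin Tubb3 made up the whole untreated neural sum. In such bulk samples, fewer cells of a type and less RNA per cell cannot be told apart.

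The 2 sets differed in level. The median mean level was 25.5 FPKM for higher genes, 39.2 for lower genes and 49.1 for all tested genes. Among genes above 0 throughout, the higher ones had a median of 231 FPKM in untreated embryos and 21.3 to 24.0 FPKM in each treated library. The lower ones had a median of 3.94 FPKM untreated and 68.0 to 85.0 FPKM in each treated library. Distances were at least 16-fold in 102 higher and 261 lower genes. The treated libraries themselves lay within 2-fold of each other in 18.8% of the higher and 24.6% of the lower genes above 0 throughout, and in 19.2% of all tested genes above 0 throughout. So most of these genes also varied by more than 2-fold among the treated libraries.

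The sets differed in transcript length. The median length was 2595 bases for higher, 3092 for lower and 2949 for all tested genes, and the GC content was 53.2%, 50.9% and 50.4%. Among genes above 0 throughout, the median length was 2953.5 bases for higher, 3581 for lower and 2978.5 for all tested genes. The share of lower genes was 1.43% in transcripts under 500 bases and 8.18% in those of at least 4000 bases, while the share of higher genes went from 6.43% to 3.62% over the same span. A cytoplasmic polyadenylation element, TTTTAT or TTTTAAT on the sense strand within the last 100 bases, was present in 16.1% of higher, 18.4% of lower and 18.9% of all tested genes with a matched transcript. Genes named Zfp, most of them zinc finger genes, numbered 314 among those tested, of which 13 (4.14%, all genes 4.37%) were higher and 38 (12.1%, all genes 7.53%) lower. By chromosome, the lower share ran from 5.33% on chromosome 1 to 9.70% on chromosome 16.

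Against single libraries, untreated embryos were at least 4-fold above luciferase in 13.4% of tested genes and below it in 23.5%. For H3.3KD these shares were 15.6% and 16.8%, for H3.3 mRNA 13.8% and 20.6%, and for H3.2 mRNA 12.7% and 24.1%. The library closest to untreated embryos differed from gene to gene. Among higher genes above 0 throughout it was luciferase in 43, H3.3KD in 63, H3.3 mRNA in 46 and H3.2 mRNA in 55.

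The 4-fold border fell within a continuum. Just inside it on the higher side stood Ralb, a RAS-like GTPase, with a distance of 2 on the log2(FPKM + 1) scale. Just outside stood S100a10, the partner of annexin A2, at 1818 FPKM untreated and 260.1, 455, 256 and 79.5 FPKM treated. On the lower side Lif, the cytokine that keeps embryonic stem cells undifferentiated, was just inside, at 1.52 FPKM untreated and 17.3, 9.10, 13.5 and 16.4 FPKM treated. Dnm2, a dynamin GTPase, was just outside, at 44.6 FPKM untreated and 213, 209, 269 and 180.3 FPKM treated.

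The counts depended on the scaling and on which libraries were compared. Higher genes made up 36.7% of the set as deposited, 22.5% with upper-quartile scaling (339 higher, 1169 lower) and 47.5% with quantile scaling (674 higher, 744 lower). Without H3.3KD the counts were 761 higher and 1493 lower. Against the NT-named treated libraries alone they were 1079 and 1364, and against the SCNT-named ones alone 1048 and 2048.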

How the data were processed

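Poly(A) RNA of mouse 4-cell nuclear transfer embryos was sequenced with TruSeq libraries, per the labels' protocols, which give single reads and a read length of 51 bases. The authors mapped reads with TopHat to mm9 and estimated FPKM per gene with Cufflinks, per the submitters' processing notes; versions are not given in the sources used here. Deposited values are FPKM, without counts, so the depth of each of the 5 libraries is unknown. Groups followed the sample titles. With 1 library in each group, no test and no p-value was computed.

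From the FPKM values, log2(FPKM + 1) was taken for genes whose mean was 1 FPKM or more. A gene was counted when untreated embryos lay 2 or more on that scale above or below each of the 4 treated libraries. The calculation was tested on simulated data. Python 3.11.15, numpy 2.4.6, pandas 2.3.3 and matplotlib 3.10.9 were used. All columns of library values were used. FPKM folds to the nearest library are ratios without the pseudocount, and differences are on the log2(FPKM + 1) scale, which understates those of low genes.

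The 28 gene lists matched 1199 of 1213 symbols. The genes and the lists were chosen with earlier results of these data known. Named genes, leaving out clone names, were the 12 of largest distance in each direction, the same 12 among genes above 0 in every library, and the 8 of largest distance whose treated libraries lay within 2-fold. Also named were the 8 of highest mean in each direction, the 3 nearest each side of the border, and up to 4 genes of each list and direction; most are given by count. Gdf9, Zp2, H2-K1, B2m, Snora43, the host genes and the cell markers fall outside that rule and were chosen after their values were seen. So do Irf9, Hist1h3a, Hist2h2aa1, Taf6, Taf7 and Taf10. Transcript length, GC content and sequences came from GENCODE M21 (GRCm38), which is not the authors' build, so no coordinates are given. The alternatives were 16 planned settings and 2 added after seeing the data.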

Additional observations from a re-analysis of the deposited data

How the results depend on the processing

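None of the 131 named genes changed the direction of its difference under the alternatives run. Most of them were chosen for a distance near or beyond 4-fold, so this outcome was largely fixed by the choice and is no support. The counts below follow the order higher, lower, higher above 0 in all libraries and lower above 0 in all libraries; as reported they were 574, 990, 207 and 435. With a pseudocount of 10 they were 299, 233, 142 and 150. With a mean of at least 50 FPKM they were 160, 391, 125 and 263. At 2-fold they were 1411, 1630, 857 and 944, and at 8-fold 231, 571, 32 and 174. Upper-quartile scaling gave 339, 1169, 89 and 594. Quantile scaling gave 674, 744, 147 and 228, and it held 488 of the 574 and 708 of the 990. Leaving out 1 treated library in turn gave 708 to 761 higher and 1107 to 1493 lower genes, and 269 to 325 and 478 to 634 above 0 in all libraries. The values of 1493 and 325 came without H3.3KD. The NT-named treated libraries alone gave 1079, 1364, 432 and 609, and the SCNT-named ones alone 1048, 2048, 516 and 768; fewer libraries to pass makes larger counts by construction, and the other causes were not tested. Counts stayed within 1.5 times under a pseudocount of 0.1, no filter, a mean of at least 5 FPKM and median-of-ratios scaling. They also did in both alternatives added after seeing the data: a treated mean of at least 1 FPKM (406 higher, 990 lower) and transcripts of at least 1000 bases (513 higher, 950 lower). Of 131 named genes, 56 fell outside the rule at 8-fold, 47 at a mean of 50 FPKM, 41 with a pseudocount of 10 and 22 with quantile scaling. No paired analysis was possible because each group holds 1 library. Without counts, no limit of detection can be set for genes listed at 0.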

Other observations

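Of 27 imprinted genes, 1 was higher and 1 lower (3.70% each, all genes 4.37% and 7.53%). Of 22 H3 chaperones and variant histones, 1 was higher (4.55%, near the 4.37% of all genes) and 0 lower. The higher one was H1foo. Without H3.3KD, 4 imprinted genes were lower (all genes 1493 of 13144). Genes on chromosome X made up 4.01% of the higher genes, 3.33% of the lower and 3.42% of all tested genes. The share of higher genes by chromosome ran from 3.23% on chromosome 17 to 5.37% on chromosome 5.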
